A study of Homo sapiens with 6 samples.

Results

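The data described here are the CTCF peaks of senescent IMR90 fibroblasts set against those of control IMR90 fibroblasts, measured by CUT&Tag, in which a transposase tethered to an antibody cuts and tags DNA around the antibody's target. The members were all peaks on chromosomes 1 to 22 and X of these 2 lists. The control list held 4673 peaks and the senescent list 8577, so that 13250 of the 65597 peaks in the series' 6 lists were compared. A peak's summit was taken as the middle of its stretch of highest signal. A senescent peak was called gained when its interval overlapped no control peak by 1 bp or more, and retained otherwise. A control peak was called lost when it overlapped no senescent peak, and kept otherwise. Each list holds the top 1% of its own library, so a peak missing from a list was not shown to be unbound there.

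IMR90 are primary fetal human lung fibroblasts, and all libraries came from 1 isolate of them. The control library is titled p21 and the senescent library p34, read here as passage numbers. The p34 title names no condition, and it was taken as senescent because the series lists 1 high-passage senescent CUT&Tag sample. According to the methods, senescence was reached by continued passaging and cells were fixed lightly with formaldehyde. The series also holds a CTCF list from p16 cells given inflachromene (ICM), a small molecule that binds HMGB proteins, for 6 days, and lists for the cohesin subunit SMC1 in p16 control, p16 ICM and p34 senescent cells. Each list came from 1 library, so the differences below have no replicate check and no test was made, and passage, library and senescence cannot be told apart. Intervals beside shares are exact (Clopper-Pearson) 95% intervals that cover counting error over peaks only.

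CTCF is a zinc-finger protein that binds a long, GC-rich DNA motif at insulators, promoters and enhancers. Cohesin, a ring-shaped complex that contains SMC1, extrudes DNA into loops and tends to stop where CTCF is bound, so that CTCF sites often mark loop anchors and domain borders. Senescent fibroblasts have left the cell cycle for good, secrete inflammatory factors and have a reorganised nucleus.

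Promoter sequence was available as RefSeq windows of 300 bases on GRCh38.p14, which run from 250 bases before to 50 after each transcription start. The letters CNAGGNGGC, a fixed form of the core of the CTCF motif with N for any base, were searched on both strands. These letters and the looser and stricter sets below all begin with C, so forms with another first base were not counted. Windows holding a gained summit carried them in 20.2% of cases (67 of 332, interval 15.996 to 24.9) and windows holding a retained senescent summit in 25.8% (229 of 887, 22.97 to 28.8). Windows holding a lost summit carried them in 15.9% (24 of 151, 10.5 to 22.7), against 10.6% of all 34789 windows and 9.98% of the 33252 windows with no CTCF summit in either list. The interval of the gained windows overlapped those of the retained and the lost windows, and the interval of the lost windows reached down to the share of all windows for these letters. With the looser letters CNAGNNGGC the shares were 40.7% for gained, 48.03% for retained and 32.45% for lost windows (25.1 to 40.5) against 24.5% of all windows. With the stricter CNAGGGGGC they were 9.04%, 14.4% and 7.95% (4.17 to 13.5) against 3.48%, so for both of these sets the lost interval lay above the share of all windows. Their median GC content was 64.0% for gained, 66.7% for retained and 68.3% for lost against 58.0% without a summit, and the part of base composition in these shares was not tested. A match is a description of the letters and not a mapped site, and a window without a match was not shown to lack a CTCF site.

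Promoters are shown here first for a gained and a lost peak among those of highest rank, the gained one because it held the letters. The window of PIP5K1C, which encodes a kinase that makes the membrane lipid PIP2, is at chr19:3700419-3700718 on the minus strand and holds a gained summit at its base 48. That of BRD2, a bromodomain reader of acetylated histones, is at chr6:32968344-32968643 on the plus strand and holds a lost summit at its base 175. Capitals mark the motif letters, which PIP5K1C carried once, from base 103 on the strand shown, and BRD2 did not carry. The pair does not stand for its classes, since PIP5K1C was the only one with a match among the 6 windows of the named gained and lost promoters that held their summit, and the gained PCBP2 window had none. The missing match of a lost window rests on the fixed first letter. BRD2 held GGAGGGGGC and the lost CEBPB window GCAGGGGGC, which differ from the stricter letters in the first base alone.
PIP5K1C: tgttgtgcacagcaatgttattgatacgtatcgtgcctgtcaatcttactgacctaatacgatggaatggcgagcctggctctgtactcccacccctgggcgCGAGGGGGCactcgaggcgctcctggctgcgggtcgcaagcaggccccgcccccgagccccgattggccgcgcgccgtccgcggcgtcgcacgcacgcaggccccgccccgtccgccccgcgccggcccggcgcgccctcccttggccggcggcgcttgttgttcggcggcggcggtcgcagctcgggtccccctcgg
BRD2: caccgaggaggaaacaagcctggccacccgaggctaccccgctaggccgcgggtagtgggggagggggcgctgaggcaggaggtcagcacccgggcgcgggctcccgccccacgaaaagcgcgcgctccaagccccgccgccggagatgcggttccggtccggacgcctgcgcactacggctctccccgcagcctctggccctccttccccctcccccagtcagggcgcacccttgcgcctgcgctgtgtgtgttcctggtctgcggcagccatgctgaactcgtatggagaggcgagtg

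The protocadherin gamma genes are shown because gained and lost peaks were interspersed along their promoters. Clustered protocadherins are neuronal-type adhesion molecules whose variable exons each have their own promoter, and CTCF binding at those promoters is known to take part in the choice of exon. None of the windows of this family that held a summit carried the motif letters, which does not show that they lack a CTCF site. Capitals in the windows below mark the longest stretch shared with the run of 16 bases common to PCDHGA7, PCDHGA8 and PCDHGA10, a run picked after the sequences were seen. The windows are on the plus strand at chr5:141382492-141382791 (PCDHGA7), chr5:141392383-141392682 (PCDHGA8), chr5:141412737-141413036 (PCDHGA10), chr5:141387448-141387747 (PCDHGB4) and chr5:141420801-141421100 (PCDHGA11). The first 3 held gained summits and the last 2 held lost ones.
PCDHGA7: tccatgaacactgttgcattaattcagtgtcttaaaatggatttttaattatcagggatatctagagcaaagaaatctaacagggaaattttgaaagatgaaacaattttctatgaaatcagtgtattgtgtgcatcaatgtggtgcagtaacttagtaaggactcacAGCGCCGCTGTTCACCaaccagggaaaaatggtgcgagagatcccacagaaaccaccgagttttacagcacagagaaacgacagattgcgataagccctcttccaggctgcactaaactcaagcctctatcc
PCDHGA8: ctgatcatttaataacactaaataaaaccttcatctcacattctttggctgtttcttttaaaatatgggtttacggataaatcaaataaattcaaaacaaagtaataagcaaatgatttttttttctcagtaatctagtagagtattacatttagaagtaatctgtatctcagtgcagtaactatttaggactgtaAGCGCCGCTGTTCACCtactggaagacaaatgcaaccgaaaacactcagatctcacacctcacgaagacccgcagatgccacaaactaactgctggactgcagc
PCDHGA10: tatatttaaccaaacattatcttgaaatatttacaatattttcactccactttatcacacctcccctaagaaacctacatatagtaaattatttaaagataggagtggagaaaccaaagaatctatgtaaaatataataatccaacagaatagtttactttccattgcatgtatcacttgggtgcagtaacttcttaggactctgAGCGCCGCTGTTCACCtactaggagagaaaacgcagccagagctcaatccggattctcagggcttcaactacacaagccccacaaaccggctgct
PCDHGB4: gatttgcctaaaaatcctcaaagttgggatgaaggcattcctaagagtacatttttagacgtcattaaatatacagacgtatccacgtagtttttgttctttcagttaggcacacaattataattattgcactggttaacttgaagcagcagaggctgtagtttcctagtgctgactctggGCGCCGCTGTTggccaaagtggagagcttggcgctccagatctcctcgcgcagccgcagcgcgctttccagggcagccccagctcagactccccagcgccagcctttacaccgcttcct
PCDHGA11: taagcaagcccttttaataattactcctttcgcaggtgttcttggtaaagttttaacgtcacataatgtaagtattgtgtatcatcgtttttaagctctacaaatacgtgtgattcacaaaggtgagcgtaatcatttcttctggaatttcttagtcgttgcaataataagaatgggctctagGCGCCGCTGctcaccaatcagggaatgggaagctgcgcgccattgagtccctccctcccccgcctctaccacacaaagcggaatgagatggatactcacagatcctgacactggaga

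In the windows of PCDHGA7, PCDHGA8 and PCDHGA10 the gained summit lay 5, 11 and 34 bp from the middle of the run. Because the run was taken from these gained windows, their full match to it was fixed by that choice. The counts of shared bases and the distances from summit to run therefore describe each window and cannot set gained against lost windows. PCDHGA1, also with a gained summit, shared 14 bases of the run, and its summit lay 13 bp away. In PCDHGB4 and PCDHGA11 the lost summit lay 98 and 75 bp away from stretches of 11 and 9 shared bases. Not all gained windows held the run, since PCDHGB7 shared 7 bases, 48 bp from its gained summit, and PCDHB2 and PCDHB13 shared 5 bases each, 51 and 26 bp from theirs. The lost summits of PCDHGA2 and PCDHGB1 lay 67 and 172 bp from stretches of 7 and 10 shared bases. The 10-base core that PCDHGA1, PCDHGB1, PCDHGA7, PCDHGB4, PCDHGA8 and PCDHGA10 had in common occurred in 10 of the 25 protocadherin gamma windows and in 46 of all 34789 windows (0.132%). Since these promoters resemble each other, reads from them may have been placed unevenly, and their values are uncertain for that reason.

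Most control CTCF peaks were listed again in senescent cells, and nearly as many further peaks were listed in senescent cells alone. Of the 8577 senescent peaks 4227 were gained, which is 49.3% (interval 48.2 to 50.3), and 4350 were retained. Of the 4673 control peaks 431 were lost, which is 9.22% (8.41 to 10.1), and 4242 were kept. The senescent list is the longer one, so a larger share of it is bound to be without a partner. When each list was shortened to its 4673 peaks of highest total signal, 26.2% of senescent and 27.2% of control peaks were without a partner, 2 shares that nearly one-to-one matching of lists of equal length makes close by construction. Peak lists do not give sequencing depth, so the cells and the library cannot be told apart as the origin of the longer list.

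Gained and lost peaks were the weaker ones of their lists. SEACR, the peak caller, gives each peak a total signal (coverage summed over the peak) and a highest signal, and both were turned into percentiles within a list, with 100 the highest. Gained peaks had a median total-signal percentile of 30.3, against 73.0 for retained peaks. Lost peaks had a median of 20.1, against 53.7 for kept peaks. In the lowest decile of the senescent list 84.9% of peaks were gained (728 of 857), in the sixth decile 54.0%, and in the highest decile 0.233% (2 of 858). In the control list the lost share went from 26.8% in the lowest decile (125 of 467) to 0 of 468 in the highest, where the interval reached 0.785%. Ranked by highest signal, the gained share was 59.1% in the lowest decile, 69.7% in the second and 5.0% (42 of 840) in the highest, and the lost share was 40.7% in the lowest and 0 of 465 in the highest. All of the 500 strongest peaks of either list by total signal had a partner in the other list, and of the strongest 1000 only 7 senescent and 4 control peaks had none. By highest signal 61 of the strongest 1000 senescent and 3 of the strongest 1000 control peaks had none. Totals of gained peaks had a median of 8437 and an upper quartile of 10449, on a scale not shown to be common to both lists. The lists ended at a total signal of 6267 in senescent and 14246 in control cells. The peaks just inside these limits lay nearest to C14orf132, ZCCHC13 and NDC1 in the senescent list, all gained with totals of 6267, 6267 and 6268, and nearest to TXK (kept, 14246), NFKBIA (lost, 14246) and WNT5A (lost, 14251) in the control list.

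**Figure D1:**
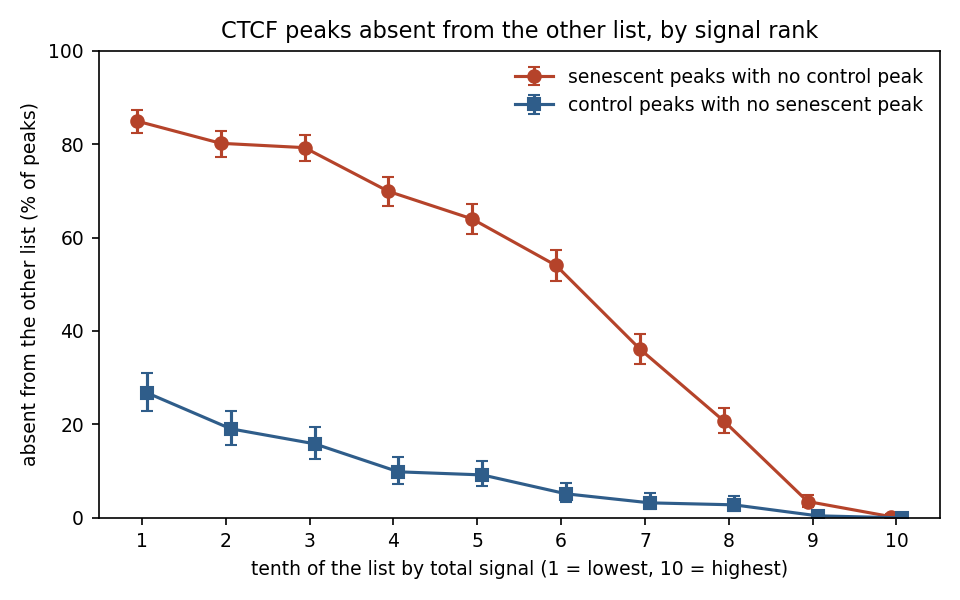
Share of CTCF peaks (vertical axis, %) with no overlapping peak in the other list, in each decile of a list ranked by total signal (horizontal axis). Circles are the senescent list and squares the control list, 1 library each, and bars are exact 95% intervals over peaks. The senescent share goes from 84.9% to 0.233% and the control share from 26.8% to 0.

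The gained peaks lay away from gene starts and the lost peaks lay at them. Peaks with a summit no more than 1 kb from any gene's 5′ end were counted as promoter peaks. Promoter peaks made up 13.5% of gained peaks (569 of 4227, interval 12.4 to 14.5) and 34.3% of retained peaks (1492 of 4350, 32.9 to 35.7). They made up 64.0% of lost peaks (276 of 431, 59.3 to 68.6) and 35.3% of kept peaks (1499 of 4242, 33.9 to 36.8). The median distance from summit to the nearest 5′ end was 10237 bp for gained, 3831.5 bp for retained, 422 bp for lost and 3864 bp for kept peaks. Of the gained peaks 40.6% lay 10 to 50 kb from a 5′ end, against 14.2% of lost peaks. Within the promoter peaks, 63.8% of gained and 51.1% of lost summits lay upstream of the 5′ end. Outside promoters, 47.5% of gained peaks and 63.9% of lost peaks lay inside a protein-coding gene.

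The contrast was also present among peaks of like rank. In each quintile of the senescent list by total signal the promoter share of gained peaks was below that of retained peaks. It was 16.7% against 51.8% in the lowest quintile, 11.1% against 37.1% in the middle quintile and 6.25% (2 of 32 peaks) against 30.5% in the highest. In the control list the lost peaks had the higher share, with 60.3% against 24.4% in the lowest quintile, 71.7% against 28.4% in the second, 61.2% against 31.6% in the third and 67.9% (19 of 28 peaks) against 40.6% in the fourth. The highest quintile held only 2 lost peaks. With lists of equal length the promoter share was 9.05% for senescent peaks without a partner and 55.9% for control peaks without one.

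**Figure D2:**
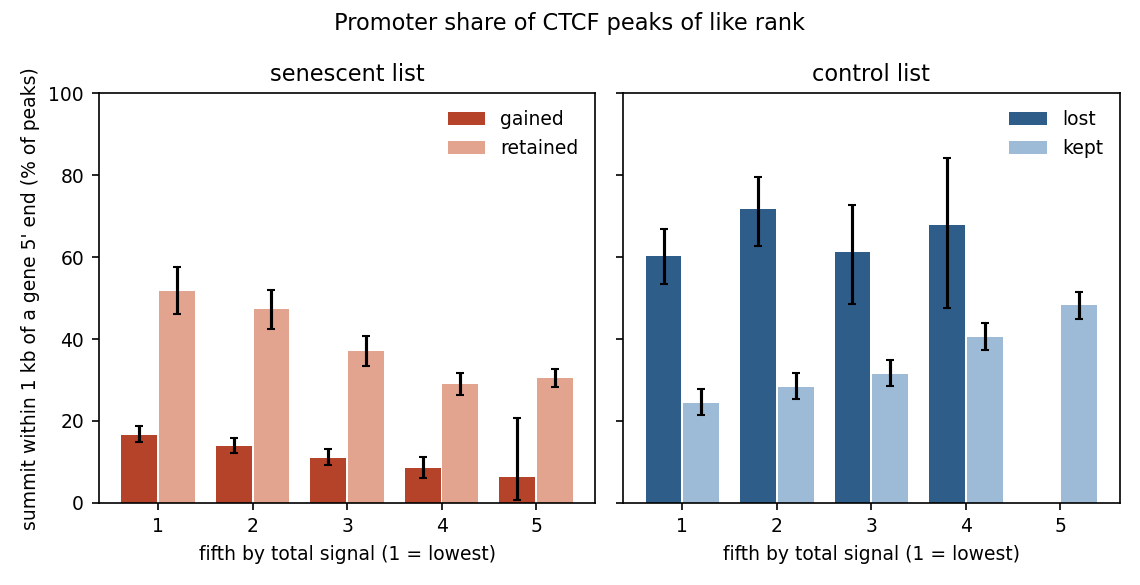
Share of CTCF peaks with a summit within 1 kb of a gene's 5′ end (vertical axis, %) by quintile of total signal (horizontal axis), for gained and retained peaks of the senescent list (left) and lost and kept peaks of the control list (right). Bars carry exact 95% intervals over peaks, and the 2 lost peaks of the highest quintile are not drawn. The gained bars run from 16.7% down to 6.25%, and the lost bars lie between 60.3% and 71.7%.

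Shape differed as well. Gained peaks had a median width of 961 bp and retained peaks 1309 bp, while lost peaks were the wider ones of the control list with 1902 bp against 1777.5 bp for kept peaks. Lost peaks were also low for their width. Their median percentile was 12.1 by highest signal but 20.1 by total signal, whereas gained peaks had 38.1 by highest and 30.3 by total signal. The nearest control interval was a median of 89459 bp away from a gained summit (quartiles 23700 and 293170 bp), and 7.88% of gained summits had one within 5 kb. For lost summits the nearest senescent interval was 50721 bp away (16632 and 189030 bp), with 10.2% within 5 kb.

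At protein-coding promoters the strongest gained peaks, by total signal, were at TTYH2, RPP25L, SERPINB12, PIP5K1C and PCBP2. TTYH2 encodes a tweety-family membrane protein, and its gained peak (chromosome 17, 74210095 to 74213500) had a total of 19457, percentile 84.1, but a highest signal of only 17, percentile 6.81. The peak at RPP25L, a homologue of an RNase P subunit, was of the same broad kind with a total of 18832 (percentile 82.7) and a highest signal of 28 (32.4). The peak 452 bp upstream of SERPINB12, a serine protease inhibitor, had a total of 17272 (79.4) and a highest signal of 68 (90.4), and the nearest control interval was 451329 bp away. PIP5K1C had a total of 16224 (76.7) with a highest signal of 62 (87.1). PCBP2, an RNA-binding protein of poly(C) tracts, had a total of 16154 (76.4) and a highest signal of 72 (92.0). These 5 peaks were of 2 kinds, 2 broad ones of low height and 3 narrow ones of high rank by height. All 5 overlapped a peak of the ICM list, as did 49.9% of all gained promoter peaks.

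Further than 1 kb from any protein-coding 5′ end the strongest gained peaks ranked higher than those at promoters. The highest lay 4960 bp upstream of HTR6, a serotonin receptor gene (chromosome 1, 19659664 to 19662334, total 24614, percentile 91.3). The second lay inside C4orf50 (chromosome 4, 5998396 to 5999543, total 23496, 90.3). The third lay inside IQSEC3, an exchange factor for ARF GTPases, with SLC6A12 as the nearest protein-coding start at 60846 bp (chromosome 12, 152102 to 153634, total 22842, 89.5). It was the single peak of these 5 outside the ICM list, which overlapped 32.6% of all distal gained peaks. The fourth lay inside CACNA2D2, an accessory subunit of voltage-gated calcium channels (chromosome 3, 50435684 to 50437407, total 22686, 89.3), and the fifth 30883 bp upstream of ATP2B2, a plasma-membrane calcium pump (chromosome 3, 10738570 to 10740093, total 22453, 89.0). For ATP2B2 the nearest control interval was 319840 bp away and for C4orf50 184866 bp.

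The strongest lost promoter peaks were at BRD2, PPM1D, TENT5A, GRK5 and CEBPB. BRD2 led with a control peak of 5501 bp (chromosome 6, 32967415 to 32972915) and a total of 45841, percentile 86.6, while its highest signal of 27 stood at percentile 10.6. Its summit lay 76 bp from the BRD2 start and 3 bp from that of the uncharacterised LOC124901302. PPM1D, a phosphatase of the DNA damage response, followed with a total of 36504 (78.99) and a highest signal of 39 (33.9). TENT5A, a cytoplasmic poly(A) polymerase, had 35380 (77.7) and 43 (42.2). GRK5, a kinase of G protein-coupled receptors, had 34424 (76.6) and 29 (13.7). CEBPB, a transcription factor of inflammatory genes such as IL6, had 33613 (75.5) and 45 (46.4), with the nearest senescent interval 3695 bp away. All 5 ranked lower by highest than by total signal, the measure they were picked by. All 5 also overlapped peaks of the ICM list and of both the control and the senescent SMC1 list. Of all lost promoter peaks, 87.0%, 83.3% and 64.9% overlapped these lists in that order.

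Of the strongest lost peaks further away, 3 lay just outside the 1 kb limit, at ADAMTS1 (1122 bp upstream, total 45684, percentile 86.5), ACTL10 (1177 bp downstream, total 33914, 75.8) and BTG1 (1606 bp downstream, total 31403, 72.0). ADAMTS1 encodes a secreted metalloprotease of the matrix and BTG1 an antiproliferative protein. The other 2 were distal. One lay 171628 bp from PLS3, an actin-bundling gene, on chromosome X (115732204 to 115733478, total 36609, 79.1), and its nearest senescent interval was 3749519 bp away. The other lay 47533 bp from BHLHE40, a clock-linked transcription factor (chromosome 3, 5026004 to 5027380, total 31216, 71.6). These 2 stood at percentiles 83.1 and 82.6 by highest signal, higher than all 5 of the lost promoter peaks just named.

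The 3 strongest retained peaks show what both lists shared. The first was in the short arm of chromosome 21 (6368583 to 6374513), 96505 bp from LOC102724560, and had the highest total of the senescent list, 193563, with its summit 2414 bp from the nearest control summit. The second lay inside PDZD7, 16480 bp downstream of the LZTS2 start (chromosome 10, 101012009 to 101013825, total 104576), and its summit was 2 bp from a control summit. The third lay inside RIPOR1, an inhibitor of RhoA (chromosome 16, 67520658 to 67522171, total 103087). Of the 100 strongest peaks of either list, 61 overlapped a peak among the 100 strongest of the other.

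Peaks found in both lists were next compared by rank. Overlapping peaks whose summits were mutually nearest gave 4236 matched pairs, with a median distance between summits of 27 bp, and 38.4% of pairs agreed to within 10 bp. In 82.9% of pairs the senescent peak was the narrower. Totals ranked alike to a degree, with a Spearman correlation of 0.62 over the 4236 pairs, 0.68 for highest signal. The senescent percentile was 25 or more points above the control percentile in 1417 pairs (33.5%) and 25 or more below it in 228 (5.38%), with a median shift of 12.4 points. A percentile in the longer senescent list is higher by construction, since more weak peaks stand under the shared ones. With percentiles taken among the matched pairs only, 646 pairs were up (15.3%) and 674 down (15.9%).

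Relative to distal pairs, promoter pairs ranked lower in senescent cells. The 1470 pairs at promoters had a median shift of 2.43 points and the 2766 distal pairs one of 19.7. Ranked among the pairs only, the medians were -8.15 and 6.14. Of promoter pairs 16.2% were up by 25 points or more (238 pairs, interval 14.3 to 18.2) and of distal pairs 42.6% (1179 pairs, 40.8 to 44.5), while 9.52% (140) and 3.18% (88) were down. Ranked among the pairs only, 4.83% of promoter pairs were up and 27.6% down, against 20.8% up and 9.69% down of distal pairs, so that the promoter balance turned from mostly up to mostly down with the ranking while promoter pairs were below distal pairs in both. Promoters made up 61.4% of the pairs that were down, 16.8% of those that were up and 34.7% of all pairs. The order held by distance class, with medians of 2.43 points within 1 kb, 16.4 at 1 to 10 kb, 24.1 at 10 to 50 kb and 21.5 beyond 50 kb.

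This difference was present at each level of control signal. In the lowest quintile of pairs by control total the median shift among pairs was 4.56 points for 209 promoter pairs and 21.9 for 638 distal pairs. In the third quintile it was -19.6 for 271 and 7.596 for 576, and in the highest quintile -4.95 for 402 and -0.52 for 446. The median log2 ratio of senescent to control total was -1.03 at promoters and -0.58 at distal pairs, a gap of -0.45 that no common rescaling of a library changes. For highest signal the gap was -0.47. For width it was -0.05, so that the lower relative totals of promoter pairs went with lower coverage and hardly with narrower peaks.

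**Figure D3:**
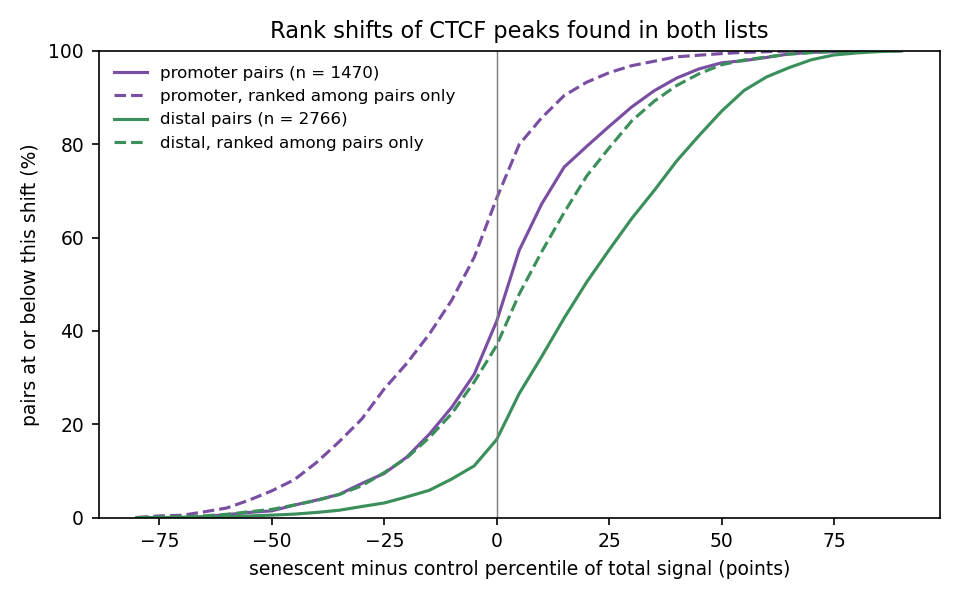
Cumulative share of matched CTCF peak pairs (vertical axis, %) by the senescent minus control percentile of total signal (horizontal axis, points), for 1470 promoter and 2766 distal pairs. Solid lines use percentiles in the whole lists and dashed lines percentiles among the pairs only. In both rankings the promoter curve lies left of the distal curve, with medians of 2.43 and 19.7 points, and -8.15 and 6.14 points.

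The 5 pairs with the largest upward shift stood at the bottom of the control list, as a rise of this size requires. The pair inside ZCCHC2 went from a total of 14512 (percentile 2.3004) in control to 25508 (92.2) in senescent cells, a shift of 89.9 points, and its 2 summits lay 954 bp apart. The pair 6440 bp upstream of TUBGCP2, a component of the gamma-tubulin complex, went from 14621 (3.27) to 25395 (92.0). That 24438 bp upstream of GATA5, a transcription factor of endoderm and heart, went from 14446 (1.69) to 21436 (87.7). Those inside NTRK3, a neurotrophin receptor, and 37407 bp upstream of CLCN4, inside WWC3, ranked 85.4 and 85.2 points higher. All 5 lay more than 1 kb from a protein-coding start, and all 5 were also in the ICM list, which overlapped 94.2% of distal retained peaks.

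The 5 pairs with the largest downward shift included 2 promoters. The pair 57 bp downstream of the CCDC71L start went from 40624 (percentile 82.8) to 6565 (4.96). The pair 509 bp upstream of KMT2E, a chromatin regulator of the MLL family, went from 44585 (85.7) to 7265 (15.9). The pair 1066 bp upstream of NFATC4, a calcium-responsive transcription factor, went from 38310 (80.8) to 6905 (10.2). The other 2 lay 13447 bp upstream of PILRB, an immune receptor gene, and inside PHLDB1. They went from 58407 (92.3) to 7163 (14.3) and from 43548 (85.0) to 7004 (11.8). At PHLDB1 the summits were 2674 bp apart and the percentile by highest signal was 13.1 points above that of control, so it ranked lower by total signal alone. The other 4 were lower by both signals.

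A small number of wide control peaks were listed as several senescent peaks. Of the kept control peaks 113 overlapped 2 senescent peaks and 3 overlapped 3, and the median width of these 116 was 3679 bp. The 3 were 2249 bp from the start of TLN1, the gene of the adhesion protein talin, 1201 bp from that of WNK1, a kinase of ion balance, and 62586 bp from that of WFS1. The widest peak of each list, named here after the widths were seen, lay over COL1A1, the main collagen gene of fibroblasts. It was 12115 bp wide in control cells (chromosome 17, 50185305 to 50197419, total 139659, percentile 99.4, highest signal percentile 25.05) and was met in senescent cells by 2 peaks, 1 of them 7661 bp wide with a total of 60880 (99.6) and the other with 28996 (94.5).

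The other lists of the series, which the classes did not use, overlapped a smaller share of gained than of lost peaks. The ICM list overlapped 34.9% of gained peaks (1477 of 4227, interval 33.5 to 36.4) and 95.4% of retained peaks, and it overlapped 82.8% of lost peaks (357 of 431, 78.9 to 86.3) and 95.6% of kept peaks. Most control peaks missing from the senescent list were thus listed in the p16 ICM cells. The overlap of gained peaks with the ICM list grew with signal, from 21.05% in the lowest quintile of the senescent list to 65.4% in the fourth and 29 of 32 in the highest. Control and ICM cells differed in treatment and in passage, which cannot be told apart.

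Cohesin was listed at a smaller share of gained than of retained peaks. The senescent SMC1 list overlapped 31.4% of gained (1329, interval 30.0 to 32.9) and 68.4% of retained peaks. By total-signal quintile of the senescent CTCF list they were 26.8% and 56.9% in the lowest and 49.4% and 64.0% in the fourth. In the highest they were 62.5% (20 of 32 peaks) and 83.1%. The p16 control SMC1 list already overlapped 29.2% of gained peaks, and 12.4% of gained peaks had SMC1 in the senescent and not in the control list, against 10.2% with the reverse. Among lost peaks 75.9% overlapped control SMC1 and 58.9% senescent SMC1, and 20.6% had SMC1 in control and not in senescent cells, against 3.71% with the reverse. Among kept peaks 75.8% overlapped control SMC1 and 69.5% senescent SMC1, with 13.4% in control alone and 7.05% in senescent cells alone. The SMC1 lists are longer than the CTCF lists, with 14883 peaks in control and 12927 in senescent cells. At promoters the senescent SMC1 share was 47.5% of gained and 72.8% of retained peaks, and at distal sites 29.0% and 66.2%.

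Matched CTCF pairs were also set apart by their SMC1 overlap. Where SMC1 was listed in senescent and not in control cells (304 pairs) the median shift among pairs was 13.2 points, and where it was listed in control and not in senescent cells (572 pairs) it was -0.97. With SMC1 in both lists (2607 pairs) it was -0.05 and with SMC1 in neither (753 pairs) 3.99. In the whole lists the medians were 30.7, 13.7, 8.64 and 20.7 points in that order, so that pairs with SMC1 in control cells alone were not below those with SMC1 in both. The control percentiles of these sets also differed, with medians of 37.1, 45.2, 63.2 and 32.1, and the part of that in the shifts was not tested.

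**Figure D4:**
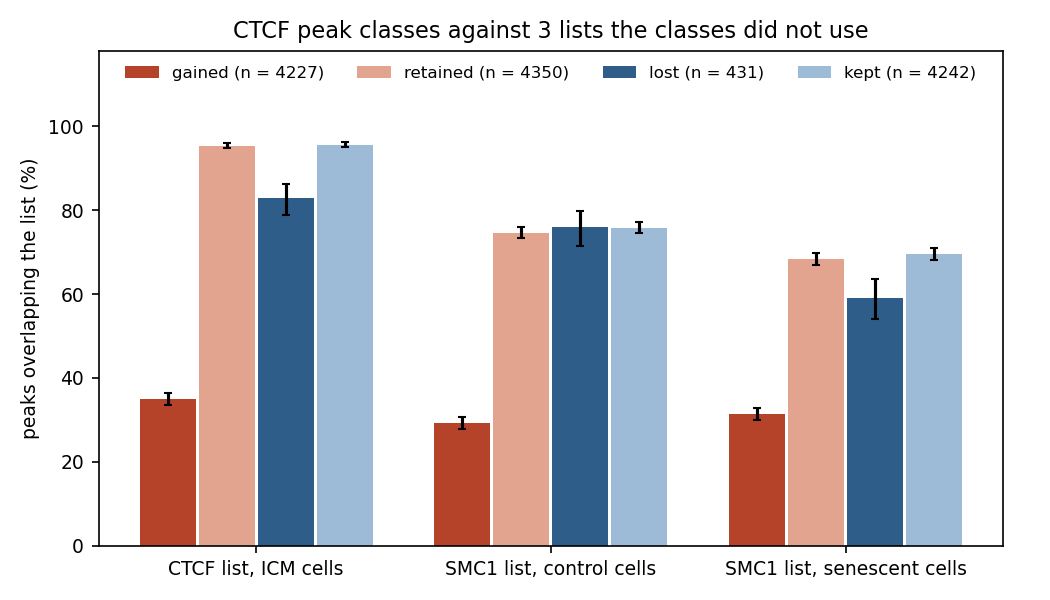
Share of gained, retained, lost and kept CTCF peaks (vertical axis, %) that overlap by 1 bp or more the CTCF list of ICM cells and the SMC1 lists of control and senescent cells, with exact 95% intervals over peaks. Gained peaks stand lowest in each list at 34.9%, 29.2% and 31.4%, and lost peaks are at 82.8%, 75.9% and 58.9%.

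The gained share was alike on most chromosomes. It lay between 44.3% (chromosome 12) and 54.0% (chromosome 20) on 21 of the 23 chromosomes. It was 60.8% on chromosome 4 (107 of 176, interval 53.2 to 68.1) and 70.6% on chromosome 18 (60 of 85, 59.7 to 80.0), a chromosome with only 28 control peaks. The lost share was highest on chromosome 4 with 27.2% (25 of 92), on chromosome X with 22.4% (15 of 67) and on chromosome 5 with 17.3% (35 of 202), and lowest on chromosome 9 with 4.72%.

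Gained peaks were mostly single. A run was a series of gained peaks with neighbouring summits under 100 kb apart and no summit of a control or retained peak between them. Of the gained peaks 57.0% stood alone (2410), and 64 runs of 4 or more held 284 of them (6.72%). The longest 3 runs had 7 peaks each. One ran from THRAP3 to CSF3R, the receptor of the granulocyte growth factor, over 291 kb of chromosome 1, and another from GORASP1 to RPSA over 348 kb of chromosome 3, past the chemokine receptor genes CX3CR1 and CCR8. The remaining one covered 109 kb of chromosome 19 from RUVBL2 to SNRNP70, with the chorionic gonadotropin genes CGB1, CGB2, CGB3, CGB5, CGB7 and CGB8 between them. Of the 6 runs of 6 peaks, named after their genes were seen, 3 were also on chromosome 19, over CEACAM4 to CEACAM3, over CEACAM1 and CEACAM8, and over PSG8, PSG1 and PSG6. CGB, CEACAM and PSG genes are families of near-identical copies, so that read placement there is uncertain.

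Per gene, a gained promoter peak was found at 456 (2.32%) and a lost one at 282 (1.44%) of the 19630 protein-coding genes whose 5′ end is known. Counting a summit in the gene or within 10 kb of it as near, 3646 of 19974 had a gained peak near them (18.3%) and 582 a lost one (2.91%). SH3PXD2A, a scaffold of podosomes, had most with 6 gained peaks near it beside 2 control peaks. KAZN, which encodes a desmosome-linked protein, PCDHGA1 and PCDHGA2 had 5 each. CAPZB, the beta subunit of actin capping protein, followed with 4 and no control peak. Longer genes leave more room for such peaks, and these counts were not corrected for gene length.

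The genes of 10 lists were then read against these background shares. In the cell-cycle arrest list 1 of 18 genes had a gained promoter peak and none a lost one. It was MDM2, a ubiquitin ligase, with a weak peak 12 bp upstream of the start (total 6550, percentile 4.59), and the nearest control interval was 551116 bp away. CDKN2B, an inhibitor of cyclin-dependent kinases, had a promoter peak in both lists. Its total was 53833 (percentile 90.6) in control and 18414 (81.9) in senescent cells.

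In the senescent chromatin list 2 of 17 genes had a gained promoter peak, CBX1 and TMPO. CBX1 encodes the heterochromatin protein HP1 beta and TMPO a lamina-associated protein. Both peaks were near the bottom of the list, with totals of 6344 (percentile 1.31) and 6795 (8.35). CBX5, the gene of HP1 alpha, had a promoter peak in both lists with 28658 (66.9) in control and 7139 (14.0) in senescent cells.

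The secretory phenotype list held 2 lost promoter peaks among 30 genes and no gained one. IL6, the best known cytokine of the senescent secretome, had a control peak 685 bp upstream of its start (chromosome 7, 22725545 to 22728097) with a total of 23792 (percentile 53.4) and a highest signal of 24 (6.24). No senescent interval lay within 225884 bp of that summit, while the ICM list and both SMC1 lists did hold a peak there. GDF15, a stress-induced cytokine of the TGF-beta family, had a control peak 78 bp downstream of its start (total 15219, percentile 8.60) and a gained senescent peak 2627 bp downstream (total 10240, 47.0). VEGFA, the vascular growth factor, had promoter peaks in both lists at percentiles 97.7 and 95.9.

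In the list of CTCF and cohesin genes 4 of 14 had a promoter peak in both lists, against 7.07% of all protein-coding genes. These were CTCF itself, the cohesin subunit STAG1, the cohesin regulator PDS5B and the acetyltransferase ESCO1. At CTCF the total was 71525 (percentile 95.1) in control and 18631 (82.3) in senescent cells and the highest signal 155 (97.2) and 26 (26.8), with summits 563 bp apart. PDS5B ranked higher in senescent than in control cells, from 19044 (33.4) to 14919 (72.3), with both summits at the same base. NIPBL, which loads cohesin, had a lost peak 740 bp upstream of its start (total 18289, 29.3). PDS5A counted as a promoter in the control list alone only because its summit lay 84 bp from the start in control and 1357 bp in senescent cells.

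The extracellular matrix list had 1 gained promoter peak among 31 genes, at the proteoglycan gene BGN (total 7343, percentile 17.1), and none lost. COL1A1 and CCN2 changed promoter status through summits that moved within kept peaks. At COL1A1 the summit lay 1008 bp from the start in control and 785 bp in senescent cells, with totals of 73181 (95.4) and 13815 (67.8). At CCN2, a matricellular growth factor gene, the distances were 747 and 1087 bp. Of these 31 genes 10 had a gained peak near them (32.3%, against 18.3%), 10 separate peaks in all. This share was also above 18.3% in the senescent chromatin (29.4%), HOX, imprinted and protocadherin lists. It was below 18.3% in the arrest (16.7%), secretory, CTCF and cohesin (7.14%), cell cycle (13.3%) and lung mesenchyme (11.1%) lists. None of these shares was corrected for gene length. The cell cycle and replication list had 1 lost promoter peak among 30 genes, at the topoisomerase gene TOP2A (total 14544, 2.79), and no gained one. PCNA, the sliding clamp of replication, had promoter peaks in both lists with summits 8 bp apart and percentiles of 77.3 and 88.6.

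Of the 39 HOX genes none had a gained or lost promoter peak, and 12 (30.8%, against 18.3% of all protein-coding genes) had a gained peak near them. These 12 genes shared 4 gained peaks, so that 1 peak counted for several neighbours. HOXA5 and HOXB5 kept promoter peaks at percentiles of 56.2 and 61.3 in control and 34.7 and 17.5 in senescent cells. Among 18 imprinted genes none had a gained or lost promoter peak and 6 had a gained peak near them (33.3%, against the same 18.3%), which rested on 4 separate peaks. At H19 a single control peak (total 125776, percentile 99.2) was met by 2 senescent peaks (40114, 97.9, and 33127, 96.2), and the summit of 1 of these fell within 1 kb of the start. Among 18 transcription factors of lung mesenchyme none had a gained or lost promoter peak. GLI1 and TBX3 had promoter peaks in both lists, at percentiles of 89.8 and 97.2 for GLI1 and of 52.5 and 43.7 for TBX3.

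Of the 10 lists, the clustered protocadherins, the longest one, held the highest counts. Of 53 genes 7 had a gained promoter peak (13.2%) and 4 a lost one (7.55%), against 2.32% and 1.44% of all protein-coding genes, and no promoter peak was in both lists. The next highest shares were near these, at 11.8% gained of senescent chromatin genes and 7.14% lost of CTCF and cohesin genes. The gained ones were at PCDHB2, PCDHB13, PCDHGA1, PCDHGA7, PCDHGA8, PCDHGA10 and PCDHGB7, with totals between 6787 and 12021 (percentiles 8.30 to 59.3). The lost ones were at PCDHGA2, PCDHGB1, PCDHGB4 and PCDHGA11, with totals between 15566 and 22106 (percentiles 11.6 to 47.0). Near them 23 genes had a gained and 19 a lost peak, which rest on 7 gained and 4 lost peaks. The gamma genes share their last exons and are nested, and a peak within 10 kb of several beta genes counted for each. Along the gamma cluster the order was PCDHGA1 gained, PCDHGA2 and PCDHGB1 lost, PCDHGA7 gained, PCDHGB4 lost, PCDHGA8, PCDHGA10 and PCDHGB7 gained and PCDHGA11 lost. Flanking peaks were kept, one at -4.25 kb from the PCDHGA1 start with the same summit in both lists (percentiles 30.8 and 83.1) and one 182 kb after it. A further kept control peak lay at -9.94 kb (percentile 74.7), with the nearest senescent summit 217 bp from it.

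**Figure D5:**
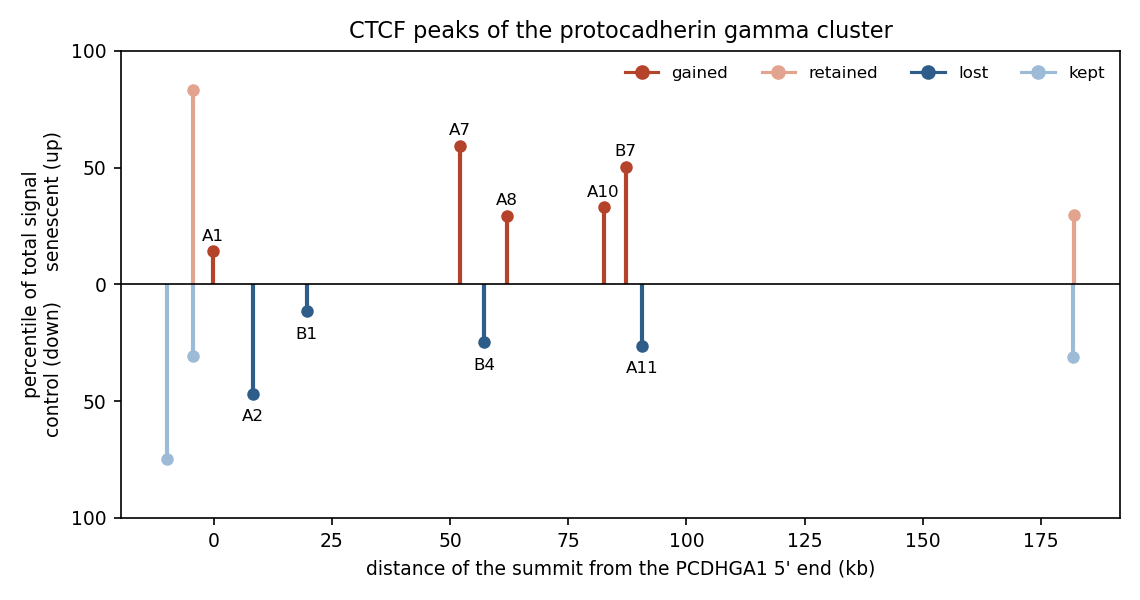
CTCF peaks around the protocadherin gamma genes by distance of the summit from the PCDHGA1 start (horizontal axis, kb). Lines above 0 are senescent peaks and lines below 0 control peaks, their length is the percentile of total signal in the list, and labels give the promoter without its PCDHG prefix. Gained promoter peaks (14.1 to 59.3) and lost ones (11.6 to 47.0) are interspersed, with no promoter in both lists, while the peaks at -4.25 and 182 kb are in both. The kept control peak at -9.94 kb has no senescent line because the nearest senescent summit, 217 bp from it, was beyond the 10 kb limit.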

How the data were processed

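CUT&Tag was performed on IMR90 cells with antibodies to CTCF and SMC1, and 1 peak list per library was deposited. According to the methods and the submitters' processing notes, reads were aligned to hg38 with Bowtie2 2.3.4.1, handled with Picard 2.20.7 and deepTools, and peaks were called per library with SEACR 1.3 in stringent mode as the top 1%. The deposited signal of each peak, total and highest, is coverage in whole numbers. The methods describe calibration by E. coli spike-in, but a common scale between the lists was not established, so signal was compared only as percentiles within a list (average ranks for ties) or as differences between peak sets. A motif filter described in the methods was not used here. 1 mitochondrial peak per list was left out.

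Summits were the middle of the region of highest signal. Intervals were matched by an overlap of 1 bp or more, and matched pairs were overlapping peaks with mutually nearest summits. Gene positions came from the RefSeq table of GRCh38.p14, with the strand from its promoter windows or from GENCODE, which gave a 5′ end for 79.6% of 59098 genes and 98.3% of 19974 protein-coding genes. Named peaks were the 5 highest by total signal among gained and lost peaks, at and away from protein-coding promoters, the 3 highest retained peaks and the 5 largest shifts each way. The 5 protein-coding genes with most gained peaks near them, the longest 3 runs and, of the 10 gene lists, each member with a promoter peak in exactly 1 of the 2 CTCF lists were also named. List members with a promoter peak in both, edge and split peaks were named after their values were seen. The members and lists were chosen with earlier results of these data known. With 1 library per group no test was made. Sequencing depth is unknown, and the lowest total signal listed was 14246 in control and 6267 in senescent cells. Python 3.11.15, pandas 2.3.3, NumPy 2.4.6, SciPy 1.17.1 and matplotlib 3.10.9 were used, and the scripts were tested on simulated data. Alternatives covered matching, list length, ranking, promoter distance and gene set. Some list members are not reported here.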

Additional observations from a re-analysis of the deposited data

How the results depend on the processing

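No paired analysis was possible because each group had 1 library. Of 50 alternative values 5 moved by less than their counting interval and 45 by more. The excess of pairs up over pairs down was absent among pairs. The gained share was 60.6% with summit windows of 100 bp, 26.2% and 35.6% with lists of equal length by total and by highest signal, 58.7% with reciprocal overlap of 50% and 51.3% with windows of 500 bp each side. The lost share was 27.8%, 27.2%, 36.3%, 24.2% and 10.7% in the same order, and 10.2% without the lowest 25% of each list. At equal length the 2 shares are close by construction.

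The promoter share of gained peaks was 18.9% with summit windows, 9.05% and 8.18% at equal length by total and highest signal, 10.6% and 18.7% with promoter distances of 500 bp and 2 kb, 9.72% with protein-coding genes only and 15.3% with alternative starts added, a setting chosen after seeing the data. For lost peaks it was 53.7%, 55.9%, 53.1%, 54.1%, 72.2%, 55.9% and 71.0% in the same order. For retained peaks it was 27.2% and 41.5% with the 2 distances, 28.6% with protein-coding genes and 37.7% with alternative starts. Under each alternative run on both, lost peaks had the higher promoter share.

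Ranked by highest signal, the median percentile was 38.1 for gained and 12.1 for lost peaks, and 22.99% of pairs were up and 8.48% down by 25 points. Percentiles among pairs gave 15.3% up and 15.9% down, and pairs matched by summit windows 37.4% and 4.38%. The ICM list overlapped 30.5% of gained peaks with summit windows, 56.5% and 43.2% at equal length by total and highest signal and 53.9% without the lowest 25%. For the senescent SMC1 list these were 26.0%, 40.8%, 33.6% and 38.6%. Why values moved was not tested where the setting itself does not show it. Neither depth nor replicate spread can be had from 1 peak list per group.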
